A study of Mus musculus with 28 samples.

Results

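Livers of mice fed a high fat diet with quercetin were compared with livers of mice fed a standard diet, to ask what stays different from the standard diet when the flavonol quercetin is added to the high fat diet. The comparison holds 10 of the 28 arrays of the study, 5 HQ arrays and 5 SD arrays, and the arrays were chosen by their labelled diet alone. The HQ mice received a high fat diet with 0.4% quercetin (4 g per kg of diet), and the SD mice received standard food. The 6 HFD mice, whose values are set beside these where a result turns on them, received the high fat diet with no supplement. All were male C57/6J mice, put on their diets at 7 weeks of age and aged 33 weeks when 26 weeks of feeding ended. The labels give no composition for either diet, and the HQ and SD diets differ in both fat and quercetin, so that HQ against SD cannot tell these apart. Each array held the liver RNA of 1 mouse on a 1-colour whole genome array. The remaining arrays came from mice on the high fat diet with 0.4% resveratrol (HR, 6 arrays) or with 0.2% quercetin and 0.2% resveratrol (HQR, 6 arrays). They enter the probe filter, the choice of probe and the pooled variance of the fit. The labels count 30 livers, 6 per diet, so that 1 HQ liver and 1 SD liver are not analysed here.

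A liver under long excess of dietary fat stores triglyceride in lipid droplets. Proteins on the droplet surface, among them Cidea, Cidec and the perilipins, set how droplets fuse and how fast their fat is broken down, and several of their genes are targets of the nuclear receptor PPARgamma, which is low in normal hepatocytes and high in adipocytes. The mouse liver also lowers its cholesterol synthesis enzymes through SREBP2 when sterols are abundant, and it expresses cytochrome P450 genes that differ between the sexes, Cyp2b9 and Cyp2b13 being higher in female mice. Quercetin is a plant flavonol that the gut and the liver conjugate and excrete.

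Values are log2 signals from which the array's own 75th percentile was subtracted, so that 0 is a bright gene and -5 is near background, and a difference of 1 is 2-fold. Between 59.3% and 73.5% of the probes of an HQ or SD array were called well above background by the scanner software, and no spot was saturated. With 5 arrays per diet, the precision of a difference is set by how few arrays there are. Pairwise correlations among the 10 arrays, across genes, were 0.940 to 0.984. Summed linear signals of the 12 hepatocyte markers were 1927 to 3374 on HQ arrays and 2252 to 4051 on SD arrays, in units of the array's 75th percentile, and all 12 were well above background on all 10 arrays. The 10 arrays lay on 8 slides, and slides 1 and 5 each held 1 HQ and 1 SD array.

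Of 21850 genes tested, 8 passed an adjusted p of 0.05 in HQ against SD (0.0366%), 6 higher (0.0275%) and 2 lower (0.00915%), by limma with Benjamini-Hochberg adjustment. The genes that rose were Cfd, Cyp2b9, Cidea, Cidec, Drc7 and a transcript that the array names NAP025923-1, and those that fell were H2-Q1 and Enho. At an unadjusted p of 0.05, 854 genes passed (3.91%), 418 of them higher (1.91%) and 436 lower (2%). In 120 genes (0.549%) the 5 HQ and 5 SD arrays did not overlap, 70 with all HQ arrays above (0.32%) and 50 with all HQ arrays below (0.229%). The median difference over all genes was -0.05, and 42.0% of genes lay above 0. The count of 8 was 1 without HQ replicate 1 or SD replicate 1, 2 without SD replicate 4 or 5, and 3 without HQ replicate 3 or 4. In a limma fit of the 10 arrays alone it was 0, with 559 genes under an unadjusted p of 0.05 and a smallest adjusted p of 0.421 among the 8.

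**Figure D1:**
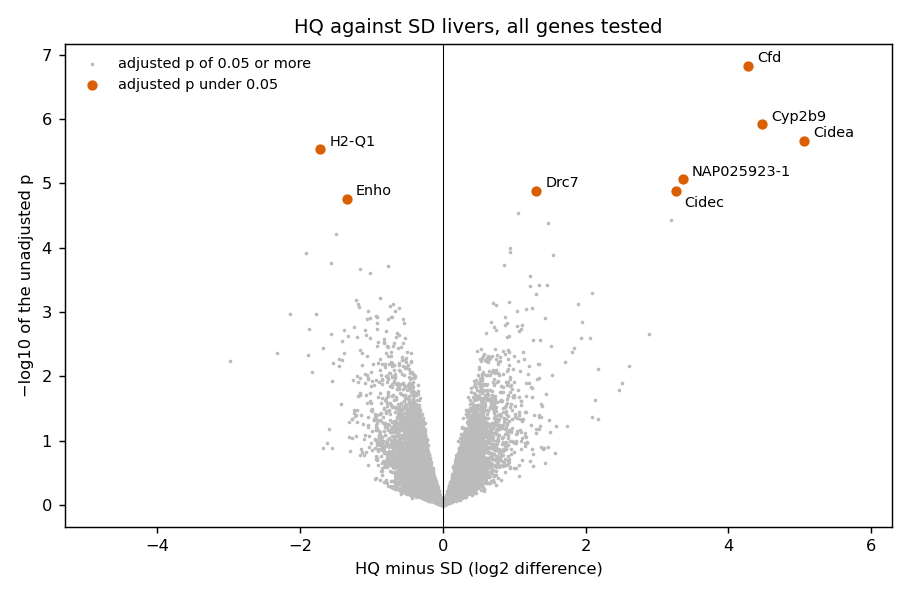
Each point is 1 of the 21850 genes tested, with the HQ minus SD difference (log2) on the horizontal axis and -log10 of the unadjusted limma p on the vertical axis. The 8 named orange points passed an adjusted p of 0.05, with Cidea, Cyp2b9 and Cfd at 4.28 to 5.07 on the right and H2-Q1 and Enho on the left.

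The sequences that matter for reading these calls are 3 probes and 2 stretches of upstream DNA. The probes are shown because their targets are not single, well separated genes, and are given 5′ to 3′ with no letter marked, at their mm9 positions in the array files. No mm9 annotation was used here, so their exons are not named. The probe listed for Cyp2b13 carries 4 RefSeq transcripts in the array file, those of Cyp2b13, Cyp2b9, Cyp2b10 and Cyp2b23, and its 60 bases span 6957 bases of chromosome 7 (26873757 to 26880713, plus strand), so that it crosses at least 1 intron. The second Cyp2b9 probe lies at 26983484 to 26983543 of the same strand. The NAP025923-1 probe spans 226 bases of chromosome 10 (79354900 to 79355125, plus strand) and ends 176 bases before the Cfd probe (79355302 to 79355361) on the same strand, so that the NAP025923-1 and Cfd values may come from neighbouring parts of 1 transcribed region and are not counted as separate evidence.
Cyp2b13 probe: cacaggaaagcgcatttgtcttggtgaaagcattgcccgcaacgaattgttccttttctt
Cyp2b9 second probe: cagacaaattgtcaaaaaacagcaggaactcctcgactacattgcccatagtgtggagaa
NAP025923-1 probe: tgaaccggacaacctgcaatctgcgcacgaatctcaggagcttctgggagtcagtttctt

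The upstream DNA of Cfd and Cyp2b9, which had the 2 smallest p values, was read from the RefSeq promoter table (GRCm38.p6) and kept to bases before the annotated gene. It was searched on both strands for AGGTCA, the half-site of many nuclear receptors, for the TATA box sequence TATAAA, for the CCAAT box and for the E-box sequence CACGTG. The 250 bases of Cfd (chr10:79890603-79890852, plus strand) held none of these. Of the 32851 windows of 250 bases in the table, 14.0% hold AGGTCA, 12.4% the TATA box sequence, 33.85% the CCAAT box and 6.02% the E-box sequence. The 191 bases of Cyp2b9 (chr7:26173159-26173349, plus strand) held 1 AGGTCA, in capitals, starting at position -79 from the annotated gene, and none of the others. Of windows of that length, 10.9% hold AGGTCA. A match of letters is not a bound site.
Cfd upstream: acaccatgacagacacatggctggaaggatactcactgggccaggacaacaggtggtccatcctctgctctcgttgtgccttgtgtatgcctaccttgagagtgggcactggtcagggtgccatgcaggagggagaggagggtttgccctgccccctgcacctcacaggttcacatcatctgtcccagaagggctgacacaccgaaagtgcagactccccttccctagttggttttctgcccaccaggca
Cyp2b9 upstream: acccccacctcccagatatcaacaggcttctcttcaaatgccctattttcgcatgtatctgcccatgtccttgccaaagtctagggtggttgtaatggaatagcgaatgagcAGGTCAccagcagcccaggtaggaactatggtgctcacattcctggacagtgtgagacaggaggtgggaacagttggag

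Of the 8 genes, the lipid droplet gene Cidea had the largest difference. Cidea, a droplet protein that promotes the fusion of droplets and is best known from brown fat, was at 4.78, 2.47, 6.21, 4.46 and 2.09 in HQ replicates 1 to 5 and at -2.50, 0.57, 0.51, -2.42 and -1.49 in SD replicates 1 to 5. All HQ livers lay above all SD livers, with HQ replicates 2 and 5 nearest to the SD range. The difference between the 5 HQ and 5 SD livers was 5.07 ± 0.84 (SE), a 33.5-fold rise (limma, adjusted p = 0.0157). This SE and those of later differences come from the limma fit of all arrays of the study, with variance pooled over all diets. They are not SEs of the HQ and SD arrays alone. Cidec, its relative that enlarges droplets in adipocytes and in fatty liver, was at 3.35, 2.54, 4.51, 3.92 and 3.32 in HQ livers and at -2.10, 1.43, 2.18, 0.78 and -0.96 in SD livers. The HQ livers again all lay higher, and most of the spread was among the SD livers. The difference was 3.26 ± 0.61 (SE), a 9.59-fold rise (limma, adjusted p = 0.0408).

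Among genes of the lipid droplet and targets of PPARgamma, 27 were tested: Cidea and Cidec rose, none fell and 25 did not pass. At an unadjusted p of 0.05, 6 were higher and 1 lower, 14 lay above 0 and 13 below, and the list median was 0.20 against -0.05 for all genes. That median was 0.01 without HQ replicate 5 and 0.04 with slide as a fixed block. Pparg itself, the receptor, was at 3.20, 2.39, 2.80, 3.18 and 2.61 in HQ livers and at 1.60, 2.13, 1.72, 2.26 and 1.77 in SD livers. The groups did not overlap, but the difference of 0.94 ± 0.21 (SE) did not pass (limma, adjusted p = 0.171). It passed with slide as a fixed block (difference 1.27, adjusted p = 0.00665) and as a random block (difference 1.12, adjusted p = 0.00258), after quantile normalization and with the deposited value table, 4 of 25 alternatives. It did not pass with the replicate block (adjusted p = 0.207) or with scan day as a block (adjusted p = 0.188). Vldlr, a receptor that takes up triglyceride-rich lipoproteins, differed by 0.92 ± 0.30 (SE) and Mogat1, which makes diacylglycerol from monoacylglycerol, by 0.91 ± 0.30 (SE), and neither passed. Plin4, a perilipin, was at 5.40 to 7.20 in HQ livers, against 4.95 to 6.20 in 4 SD livers and 2.06 in SD replicate 1. Cd36, a fatty acid transporter, was at -1.54 to 2.06 in HQ livers and at -2.03 to 0.48 in SD livers, which overlapped.

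Cfd, the serine protease factor D (adipsin) of the alternative complement pathway, which adipocytes secrete, gave the smallest p of all genes. It was at 4.75, 4.13, 5.57, 6.25 and 2.60 in HQ livers and at -2.14, 1.78, 1.57, -0.05 and 0.74 in SD livers. The groups did not overlap, HQ replicate 5 was the lowest HQ liver, and the difference of 4.28 ± 0.60 (SE) was a 19.4-fold rise (limma, adjusted p = 0.00325). NAP025923-1 was at 1.26, -0.01, 2.89, 3.22 and -0.31 in HQ livers and at -3.95, -0.81, -0.86, -2.54 and -1.62 in SD livers, a difference of 3.36 ± 0.61 (SE; limma, adjusted p = 0.0379). The HQ livers with the highest and the lowest Cfd also had the highest and the lowest NAP025923-1.

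Cfd and Cidec are also 2 of the 10 adipocyte markers tested, and the other 8 did not pass. By difference, 5 of the 10 lay above 0 and 5 below. Fabp4, the adipocyte fatty acid binding protein, averaged 2.75 ± 0.52 on HQ arrays and 2.31 ± 0.84 on SD arrays, and Lipe, the hormone-sensitive lipase, 2.23 ± 0.55 on HQ arrays and 2.13 ± 0.33 on SD arrays (SD, n = 5 each), both well above background on all 10 arrays. Adipoq, the adipokine adiponectin, averaged -3.63 ± 1.32 on HQ arrays and -2.82 ± 0.71 on SD arrays (SD, n = 5 each), and was well above background on 3 HQ and 5 SD arrays. Plin1, the perilipin of adipocyte droplets, averaged -4.12 ± 0.75 on HQ arrays and -3.42 ± 0.59 on SD arrays (SD, n = 5 each), and was well above background on 2 HQ and 5 SD arrays. After normexp background correction the Plin1 difference was 0.26. The summed linear signal of the list was 26.7 to 102 on HQ arrays and 8.55 to 21.6 on SD arrays, sums that hold Cfd and Cidec. The part of adipocyte RNA in the Cfd and Cidec differences was not tested. In bulk liver RNA, a change in the number of cells of a type and a change in RNA per cell cannot be told apart. Of the 27 complement genes tested Cfd alone passed, and the list median was 0.02.

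**Figure D2:**
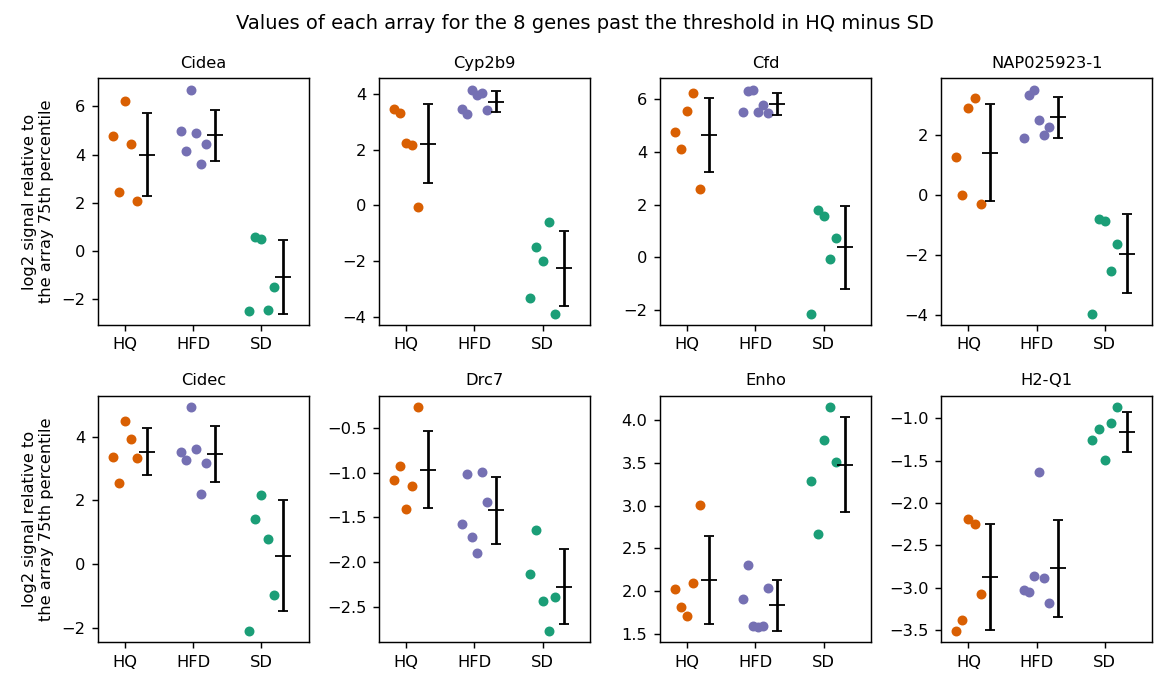
Points are single arrays (5 HQ, 6 HFD, 5 SD) and bars are the mean with its SD, for the 8 genes that passed in HQ minus SD, on the log2 scale relative to each array's 75th percentile. For all 8 genes the HQ mean lies nearer to the HFD mean than to the SD mean, and HQ and SD overlap only for Enho, where HQ replicate 5 at 3.00 exceeds the SD liver at 2.67.

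Among cytochrome P450 genes, Cyp2b9 rose. It was at 3.45, 3.30, 2.23, 2.17 and -0.07 in HQ livers and at -3.33, -1.49, -2.01, -0.58 and -3.87 in SD livers, 4 of which were well above background. All HQ livers lay above all SD livers, with HQ replicate 5 nearest to the SD range, and the difference was 4.47 ± 0.71 (SE), a 22.2-fold rise (limma, adjusted p = 0.0131). Its second probe, printed above, differed by 1.77 in the same direction at a lower signal, with means of -1.82 in HQ livers and -3.59 in SD livers. The shared Cyp2b13 probe was at 0.97, 0.68, 0.35, -0.04 and -2.02 in HQ livers and at -4.43, -2.96, -3.60, -1.68 and -3.36 in SD livers. HQ replicate 5 fell inside the SD range, and the difference of 3.19 ± 0.65 (SE) did not pass (limma, adjusted p = 0.0824).

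ENSMUST00000005477, an Ensembl transcript that the array file also lists for its Cyp2b10 probe, was at -1.48, -2.20, -2.52, -3.01 and -3.84 in HQ livers and at -4.56, -4.19, -4.43, -3.12 and -4.29 in SD livers, 2 of which were well above background. The difference of 1.51 ± 0.47 (SE) did not pass. The probe named Cyp2b10 itself, for a P450 that the receptor CAR induces, was well above background on 0 HQ arrays and 1 SD array, so no fold is given. Its value depended on the background correction, with a difference of -1.23 as processed by the scanner software and 0.29 after normexp (limma, adjusted p of 1.00 and 0.676). Of the 31 drug metabolism P450 genes tested, Cyp2b9 alone passed, 6 lay above 0 and 25 below, and the median was -0.28, against -0.16 after quantile normalization and -0.13 in the deposited value table. Cyp2c54 was at 1.41 to 2.50 in HQ livers and 2.56 to 3.87 in SD livers, with no overlap, and its difference of -1.19 ± 0.31 (SE) did not pass. Por, the reductase that supplies P450 enzymes with electrons, differed by -0.78 ± 0.33 (SE) and did not pass. Of 25 liver genes that are higher in female mice, 1 passed as higher, but 6 lay above 0 and 19 below, with a median of -0.40. Among 25 genes that are higher in male mice none passed, 12 lay above 0 and 13 below, and the median was -0.11. Whether HQ livers shifted towards the pattern of either sex was not tested.

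Drc7, a subunit of the dynein regulatory complex of motile cilia, was at -1.09, -0.93, -1.41, -1.15 and -0.26 in HQ livers and at -2.13, -1.64, -2.43, -2.77 and -2.40 in SD livers. The groups did not overlap, and the rise of 1.31 ± 0.24 (SE) was 2.48-fold (limma, adjusted p = 0.0408). A second Drc7 probe was not well above background on any HQ or SD array.

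Both genes that fell encode proteins at or beyond the cell surface. H2-Q1, an MHC class I gene of the Qa region, was at -3.51, -3.38, -2.18, -2.25 and -3.08 in HQ livers and at -1.25, -1.12, -1.50, -1.06 and -0.86 in SD livers. No arrays overlapped, and the difference of -1.72 ± 0.29 (SE) was 3.30-fold lower in HQ livers (limma, adjusted p = 0.0158). MHC class I genes are close copies of each other, and cross-hybridisation was not tested. After normexp the difference was -0.63 and did not pass (adjusted p = 0.66). Of the 18 MHC genes tested it alone passed, and the list median was -0.06. Enho, which encodes the secreted peptide adropin, was at 2.03, 1.81, 1.72, 2.09 and 3.00 in HQ livers and at 3.29, 2.67, 3.77, 4.16 and 3.51 in SD livers. HQ replicate 5 lay above SD replicate 2, and the difference of -1.35 ± 0.26 (SE) was 2.54-fold lower in HQ livers (limma, adjusted p = 0.0479).

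Within slide 1 (HQ replicate 1 and SD replicate 1) all 8 genes differed in the direction of the whole comparison, with Cfd at 6.89, Cyp2b9 at 6.78, Cidea at 7.27, Cidec at 5.45, NAP025923-1 at 5.21, Drc7 at 1.05, H2-Q1 at -2.26 and Enho at -1.26. Within slide 5 (HQ replicate 4 and SD replicate 3) they did so too, with Cfd at 4.68, Cyp2b9 at 4.17, Cidea at 3.95, Cidec at 1.74, NAP025923-1 at 4.08, Drc7 at 1.28, H2-Q1 at -0.75 and Enho at -1.68. With slide as a fixed block, Cfd (adjusted p = 0.000896), NAP025923-1 (0.004), Cidea (0.0301) and H2-Q1 (0.0371) still passed by limma, and Cyp2b9 (0.0684), Cidec (0.0684), Drc7 (0.0734) and Enho (0.219) did not. HQ replicate 3 was the 1 array on its slide and adds nothing to that fit. SD replicate 1 was the lowest SD liver for Cfd, Cidea, Cidec and NAP025923-1. Without it or without HQ replicate 1 Cfd was the 1 gene of the 8 that passed. HQ replicate 1 also stood apart in Cela3b, a protease of the acinar pancreas, at 1.96 against an HQ median of -4.20. The highest SD value of Cela3b was -3.01. The part of pancreatic RNA in HQ replicate 1 was not tested. Without SD replicate 1 the differences were 3.65 for Cfd, 4.71 for Cidea, 2.67 for Cidec and 2.87 for NAP025923-1. With all arrays they were 4.28, 5.07, 3.26 and 3.36, in the same order. For Cyp2b9 the difference without SD replicate 1 was 4.20 and for H2-Q1 -1.74.

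The high fat diet without quercetin was set beside HQ for the same genes. HFD minus SD shares the 5 SD arrays with HQ minus SD, and HQ minus HFD shares the HQ arrays, so agreement between these comparisons is not counted as evidence. In HFD against SD, 25 genes passed (0.114%), 15 higher (0.0686%) and 10 lower (0.0458%). In HQ against HFD, 0 of the 21850 genes passed (0%) by limma, and 464 had an unadjusted p under 0.05 (2.12%), 170 of them higher (0.778%) and 294 lower (1.35%). The numbers for HFD against SD at an unadjusted p of 0.05 were 1341 genes (6.14%), 730 higher (3.34%) and 611 lower (2.8%).

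Of the 8 genes that passed in HQ against SD, Drc7 was the 1 that did not pass in HFD against SD, where it differed by 0.85 ± 0.23 (SE; limma, adjusted p = 0.274). Its HQ minus HFD difference was 0.46 with a 95% interval of -0.03 to 0.94. The interval of HQ minus HFD spanned 0 for Cfd (-2.36 to 0.01), NAP025923-1 (-2.37 to 0.04), Cidea (-2.44 to 0.86), Cidec (-1.12 to 1.28), H2-Q1 (-0.68 to 0.47) and Enho (-0.21 to 0.80). For Cyp2b9 it lay below 0, from -2.91 to -0.10, with an adjusted p of 1.00 in limma. These intervals leave room for HQ livers to be several-fold lower than HFD livers in Cfd and Cidea, or not to differ at all. HFD livers were the less variable group for Cyp2b9, at 3.28 to 4.15, and for Cfd, at 5.50 to 6.37.

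The other 18 genes that passed in HFD against SD did not pass in HQ against SD. Adam11, a membrane protein of the ADAM family, differed by 1.47 ± 0.30 (SE) in HQ against SD (adjusted p = 0.0832) and by 1.53 ± 0.29 in HFD against SD, and its HQ and SD arrays did not overlap. Tff3, a secreted trefoil peptide, differed by -1.49 ± 0.31 in HQ against SD (limma, adjusted p = 0.11) and by -1.92 ± 0.30 in HFD against SD. Tpm2, a tropomyosin, differed by 1.54 in HQ and 1.67 in HFD livers, Fam222a by -1.57 and -1.77, Sema5b, a semaphorin, by 1.22 and 1.66, and Olfr701, an olfactory receptor gene, by 1.13 and 1.75. In HQ against SD their adjusted p in limma was 0.179 for Tpm2, 0.219 for Fam222a, 0.278 for Sema5b and 0.807 for Olfr701.

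Further genes of that set, like those above, differed less from SD in HQ livers than in HFD livers. The set was picked by its HFD minus SD difference. A smaller difference in HQ livers is favoured by that choice and is not counted as evidence. None of these genes passed in HQ against HFD, and the intervals given are not adjusted for the number of genes. Moxd1, a copper-dependent monooxygenase-like gene, was at -1.20, -2.03, -0.74, -2.38 and -2.31 in HQ livers and at -6.30 to -4.39 in HFD livers, 1 of which was well above background, against -0.26, -4.03, -1.16, 3.06 and 1.70 in SD livers. The HQ values lay inside the wide SD range and all above the HFD values, and HQ minus SD was -1.59 ± 0.83 (SE). Asns, asparagine synthetase, a target of the amino acid stress factor ATF4, was at -0.28, 0.24, 1.60, 0.32 and -0.50 in HQ livers and at -1.88 to -0.10 in HFD livers, against 0.17, 1.43, 3.11, 3.78 and 2.27 in SD livers. HQ minus SD was -1.88 ± 0.54 (SE; limma, adjusted p = 0.593), and the 95% interval of HQ minus HFD was 0.21 to 2.34.

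Aatk, a kinase gene, was at 3.20, 2.48, 3.41, 3.45 and 2.62 in HQ livers and at 3.42 to 4.68 in HFD livers, against 1.98 to 2.98 in SD livers. HQ values spanned both, and the interval of HQ minus HFD was -1.36 to -0.40. Hao2, a peroxisomal 2-hydroxyacid oxidase, was well above background on 0 of the 5 HQ arrays and 0 of the 5 SD arrays, so that no fold is given between them. Slc1a5, a glutamine transporter, differed by -0.70 in HQ against SD and by -1.08 in HFD against SD, Hunk, a kinase, by -0.78 and -1.31, Fst, follistatin, by -1.02 and -1.48, and Appl1, an adaptor protein, by -0.51 and -0.81. The plot of intervals sets both differences side by side for all of these genes.

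**Figure D3:**
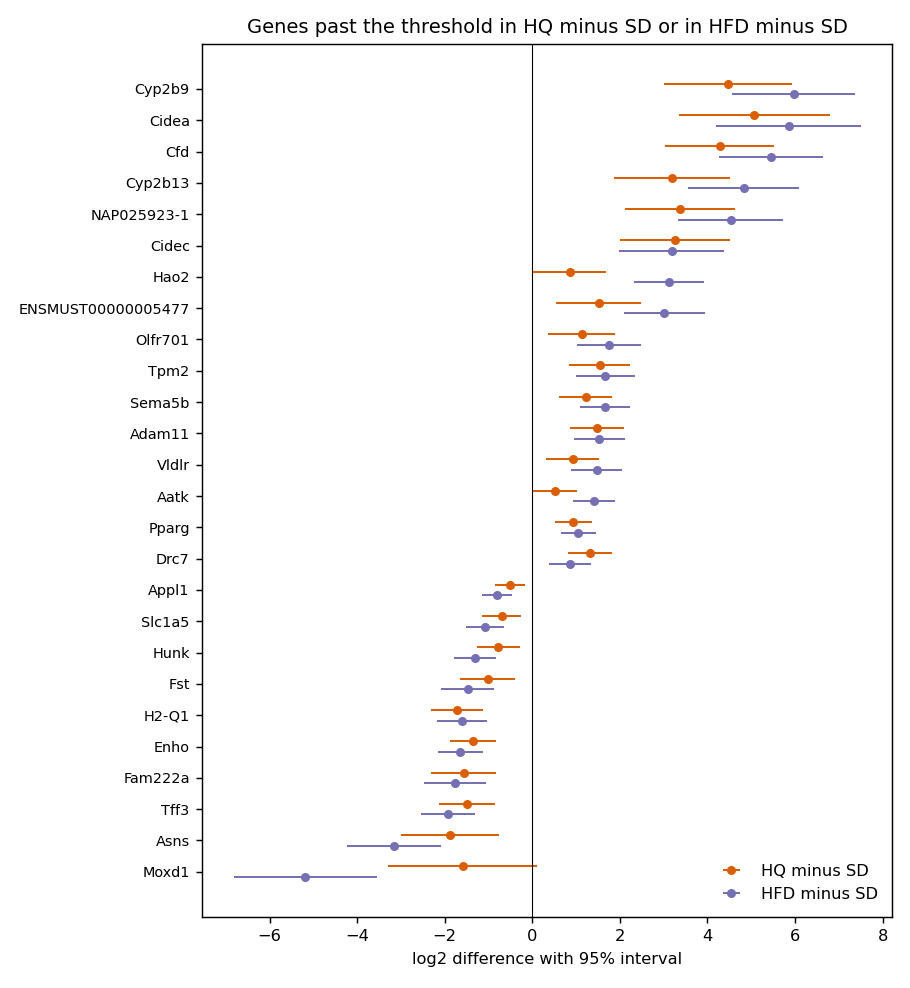
For the 26 genes that passed in HQ minus SD or in HFD minus SD, points are the differences (log2) and lines their 95% limma intervals, with HQ minus SD in orange above HFD minus SD in violet. Both share the 5 SD arrays, and the intervals of the 2 differences are furthest apart for Hao2, which is not well above background in HQ or SD livers, and for Moxd1.

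The remaining genes are described by group, from lists of liver pathways and cell types. For scale, 1.91% of all genes were higher and 2% lower at an unadjusted p of 0.05, and a count from a list of correlated genes carries less weight than its size. No test of a list was made.

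Cholesterol synthesis and uptake genes lay lower in HQ livers as a group. All 25 lay below 0, 9 of them at an unadjusted p under 0.05, and the median was -0.48, but none passed the adjusted threshold. Sqle, squalene epoxidase, a rate-controlling enzyme of the sterol branch, was at -3.12, -1.80, -2.83, -1.18 and -2.27 in HQ livers and at 1.11, -1.46, -0.58, -1.17 and 0.47 in SD livers. The difference was -1.92 ± 0.43 (SE; limma, adjusted p = 0.178), and SD replicates 1 and 5 were the highest livers. Msmo1, a sterol C4 demethylation enzyme, differed by -1.39 ± 0.45, Dhcr7, which makes cholesterol from 7-dehydrocholesterol, by -1.07 ± 0.35 and Hsd17b7, a sterol ketoreductase, by -0.92 ± 0.26 (SE). SD replicate 1 stood highest in Msmo1 at 5.71 and in Dhcr7 at 5.15, against at most 4.03 and 3.93 in the other SD livers. In HFD against SD the list median was -0.32.

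Genes of fatty acid and triglyceride synthesis were split, with 12 of 24 above 0, 1 higher and 1 lower at an unadjusted p of 0.05, and a median of -0.04. Aacs, which activates acetoacetate for lipid synthesis, was the higher one, at 2.18 to 4.30 in the 4 HQ livers with a value and at 0.32 to 2.24 in SD livers, with a difference of 1.84 ± 0.57 (SE; limma, adjusted p = 0.759). Srebf1, the insulin-responsive lipogenic regulator, differed by 0.74 ± 0.61 (SE). Ppargc1a, a coactivator of fasting metabolism, differed by -0.91 ± 0.31 (SE). Of 30 PPARalpha target and fatty acid oxidation genes 7 lay above 0, with a median of -0.17, 1 higher and 2 lower at an unadjusted p of 0.05. Nudt7, a peroxisomal coenzyme A diphosphatase, was at 5.82 to 7.53 in HQ livers, against 3.98 to 4.42 in 4 SD livers and 5.85 in SD replicate 1, and did not pass (adjusted p = 0.639).

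Nitrogen handling genes also lay lower. Of 18 urea cycle and glutamine genes, 17 lay below 0, 4 of them at an unadjusted p under 0.05, with a median of -0.43, and none passed. The median was -0.27 after quantile normalization and -0.65 after normexp. Asl, argininosuccinate lyase, differed by -1.39 ± 0.40, Gls2, liver glutaminase, by -0.76 ± 0.30 and Slc25a15, the mitochondrial ornithine carrier, by -0.69 ± 0.26 (SE). Of 26 amino acid stress genes 21 lay below 0, 4 lower and 1 higher at an unadjusted p of 0.05, with a median of -0.32. Cth, cystathionine gamma-lyase, differed by -1.09 ± 0.41 (SE), and Vldlr was the higher one.

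Of 22 hepatokine genes, which encode proteins the liver secretes, Enho fell and 21 did not pass, 19 lay below 0 and the median was -0.25. Igfbp2, an insulin-like growth factor binding protein, differed by -1.13 ± 0.38 and Fgf21, a fasting hormone, by -1.30 ± 0.86 (SE). Of 28 acute phase genes 23 lay below 0, with a median of -0.23 (-0.14 after quantile normalization), and none passed. SD livers were not uniform for these genes. Saa1 was at 1.45 to 8.29 in SD livers, with a median of 1.60, and at 1.30 to 2.71 in HQ livers. Saa3 was at -1.56 to 4.45 in SD livers, with a median of -0.77, and at -1.83 to -0.45 in HQ livers. Of 24 bile acid genes 18 lay below 0, with a median of -0.31 and 4 lower and 1 higher at an unadjusted p of 0.05. Baat, which conjugates bile acids with taurine and glycine, was at 4.66 to 5.54 in HQ livers and 5.65 to 5.99 in SD livers with no overlap, a difference of -0.70 ± 0.18 (SE; limma, adjusted p = 0.486). Cyp8b1, the enzyme that directs synthesis to cholic acid, differed by -1.33 ± 0.39, and Slco1a4, an organic anion transporter, by -1.68 ± 0.53 (SE). Cyp26a1, which degrades retinoic acid, was at 0.08 to 4.04 in HQ livers and at -2.37 to 0.63 in SD livers, which overlapped, and its 6.07-fold difference did not pass (adjusted p = 0.832).

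The NRF2 and antioxidant, aryl hydrocarbon receptor, flavonoid conjugation and sirtuin lists, which cover pathways often studied with quercetin, held no passing gene. Of 32 NRF2 target and antioxidant genes 14 lay above 0, with 1 higher and 2 lower at an unadjusted p of 0.05 and a median of -0.07. Gclm, the regulatory subunit of glutathione synthesis, differed by -0.71 ± 0.20 and Hmox1, heme oxygenase, by 0.44 ± 0.38 (SE). Of 10 aryl hydrocarbon receptor targets 3 lay above 0, and Ahr, the receptor, differed by -1.08 ± 0.32 (SE; limma, adjusted p = 0.631), with HQ replicate 5 lowest at -0.38. Of 20 flavonoid conjugation and efflux genes 6 lay above 0, with a median of -0.12, and of 22 sirtuin and AMPK genes 11 did.

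Some groups lay higher in HQ livers without a passing gene. All 17 heat shock proteins lay above 0, with a median of 0.37, but 0 had an unadjusted p under 0.05. Hsph1, a cochaperone, differed by 0.68 ± 0.47 (SE). All 14 sinusoidal endothelium markers lay above 0, with a median of 0.41, and 1 had an unadjusted p under 0.05. That marker, Lyve1, a hyaluronan receptor, was at -2.03 to -0.42 in HQ livers and at -3.55 to -1.41 in SD livers, which overlapped. After normexp, where the median of all genes was 0.19 in place of -0.05, heat shock proteins had 13 members above 0 and a median of 0.21, and the endothelial markers 11 above 0 and a median of 0.25.

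Of 29 extracellular matrix and stellate cell genes 25 lay above 0, with a median of 0.36, and 6 were higher and 1 lower at an unadjusted p of 0.05. Loxl1 and Loxl2, which cross-link collagen and elastin, differed by 0.93 ± 0.34 and 0.61 ± 0.24, and Col1a2, a chain of type I collagen, by 0.66 ± 0.28 (SE). Mmp14, a membrane protease that cuts collagen, was the lower one, by -0.51 ± 0.18 (SE). None passed. Their mean log2 signal per array was 0.26 to 0.94 in HQ livers and -0.29 to 0.48 in SD livers, which overlapped, and the list median was 0.03 in HFD against SD. Among other cell types, 10 Kupffer cell markers had a median of -0.21, 13 other macrophage and monocyte markers of 0.26 and 15 lymphocyte markers of -0.03, and 1 macrophage and monocyte marker had an unadjusted p under 0.05. For 8 acinar pancreas markers the median was 0.30. Their summed linear signal was 1.42 to 14.0 on HQ arrays and 1.81 to 2.46 on SD arrays. All 12 hepatocyte markers lay below 0, with a median of -0.26, and 0 had an unadjusted p under 0.05. Of 50 oxidative phosphorylation subunits 45 lay below 0 and of 40 cytosolic ribosomal proteins 33, against 28 and 23 after quantile normalization. Whether the cell makeup of the samples differed and had a part in these group values was not tested.

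**Figure D4:**
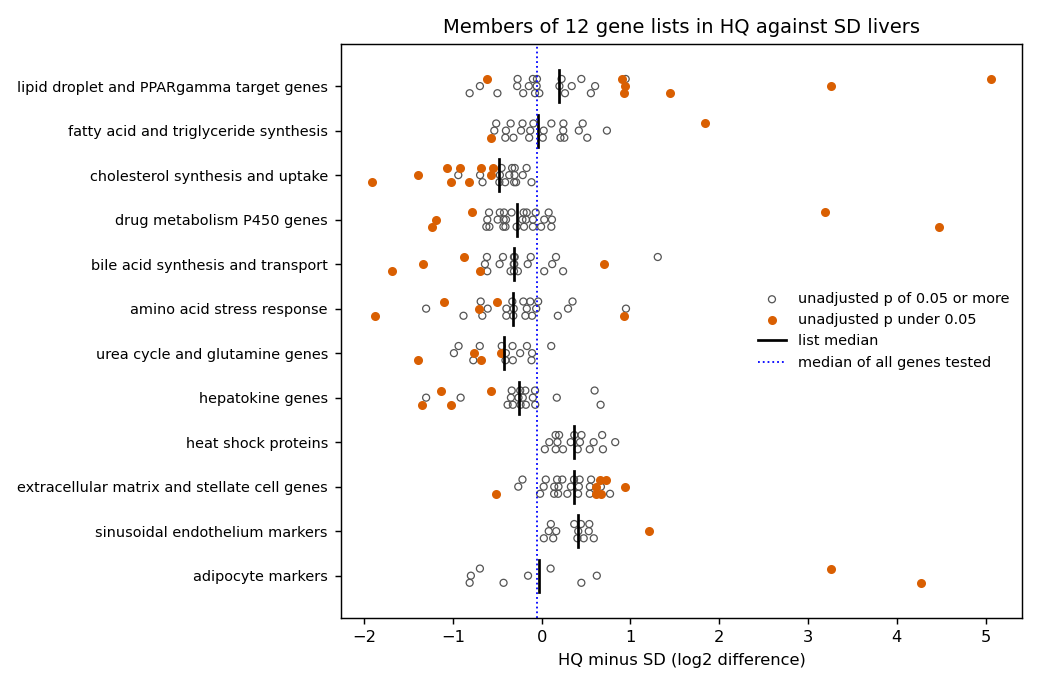
Circles are the members of 12 gene lists by their HQ minus SD difference (log2), filled where the unadjusted limma p was under 0.05, with the list median as a black bar and the median of all genes tested as a dotted line. The 25 cholesterol genes lie below 0 and the 17 heat shock and 14 endothelial genes above 0, while in most lists the filled points are few and Cidea, Cyp2b9, Cfd and Cidec stand far from their lists.

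Among the genes with the smallest p outside these groups, none of which passed, Tmem210, a transmembrane protein, differed by 1.06 ± 0.21 (SE; limma, adjusted p = 0.0706). Lgi4, a secreted protein of peripheral glia, differed by -1.17, Ahctf1, a nuclear pore protein, by -0.77, Ube2u, a ubiquitin-conjugating enzyme, by -1.03, Rdh16f2, a retinol dehydrogenase family member, by -0.88 and the unnamed transcript AK016729 by -1.21. The HQ and SD arrays did not overlap for these 6 genes, against 120 of all 21850 genes (0.549%). The 6 were named for their small p in the same comparison, so their separation is not separate evidence.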

How the data were processed

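Each deposited scanner file holds the spot intensities of 1 array. Per the file headers, the processed intensity (Cy3, mm9 annotation, Feature Extraction 10.5.1.1) was background-subtracted by the scanner software. The authors also deposited a value table with 1 score per probe, standardised per array with an unstated scale, which served as an alternative only after multiplication by 3.25. Here log2 processed intensities were averaged over spots and shifted by each array's 75th percentile of non-control probes, and 32078 of 41174 probes well above background on at least 5 of 28 arrays were kept. A gene was read from whichever of its kept probes was brightest on average. Names were updated by RefSeq accession (25253 probes), symbol (6233) or synonym (1610), and 8078 kept the array's name.

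All 28 arrays (SD, HFD, HQ, HR and HQR) were fitted by group with limma 3.58.1 in R 4.3.3 (two-sided, Benjamini-Hochberg over 21850 genes, threshold 0.05). The pipeline was tested on simulated data. Alternatives changed the background correction, scaling, dim-probe filter, probe choice, variance model, arrays fitted, blocks and threshold. The labels do not say that same-numbered mice share a cage or batch. The comparison, the 41 gene lists and the tests were chosen with earlier results of these data known. Named genes are the passing genes, those of smallest p up to 10 per direction, up to 4 members per list, a fixed set of fatty liver genes, and genes that passed in HFD against SD. Adipoq, Lipe and Fabp4 were named outside that rule after their values were seen. 97 genes lacked a value on some HQ or SD array, where a flagged spot was dropped, and were fitted without it. Some items are not reported here.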

Additional observations from a re-analysis of the deposited data

Results flagged for a closer look

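Of 222 sets of values (74 named genes in HQ, SD and HFD livers), 8 had 1 array far from the others by Dixon's test at 95%, which flags about 5% by chance. In HQ livers, Asl was at 3.15 in replicate 1 against 4.53 to 4.96 in the others, and Cryab, a small heat shock protein, was at 0.12 in replicate 5 against -0.48 to -0.30. In SD livers, ENSMUST00000005477 was at -3.12 in replicate 4 against -4.56 to -4.19, and Nudt7 was at 5.85 in replicate 1 against 3.98 to 4.42. In HFD livers, H2-Q1 was at -1.63 and Sema5b at 0.52 in replicate 4, against -3.18 to -2.86 and 1.13 to 1.34 in the others. Slc25a15 was at -1.13 in HFD replicate 5 against -0.63 to -0.36, and Rdh16f2 was at 4.25 in HFD replicate 3 against 4.77 to 5.05.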

How the results depend on the processing

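The count of 8 genes in HQ against SD moved to 14 with the deposited value table, 18 with slide as a random block, 13 with slide as a fixed block (4 shared with the 8), 4 after normexp, 4 with scaling to the array median, 1 at a minimum fold of 1.5 (treat) and 0 in the fit of the HQ and SD arrays alone. It was 1 to 10 when 1 array was left out: 1 without HQ replicate 1 or SD replicate 1, 2 without SD replicate 4 or 5, 3 without HQ replicate 3 or 4, and 6 to 10 otherwise. The other settings gave 6 to 12. Deviations of same-numbered HQ and SD livers from their diet's mean correlated at 0.516, 0.289, 0.452, 0.487 and -0.221, so the livers were not taken as pairs. With a replicate block the count was 7, 6 of them among the 8, and 32 in HFD against SD, and Drc7 (adjusted p = 0.0522) and Enho (0.106) did not pass. With scan day as a block Cidec (0.0881) and Enho (0.123) did not. HQ against HFD gave 0 in the 4 settings run (as reported, normexp, slide block and replicate block), with 464 to 2398 genes at an unadjusted p under 0.05. Normexp reversed the sign of Cyp2b10 (0.29) and Plin1 (0.26), both dim genes. Cfd passed in 24 of 25 alternatives, Cyp2b9 in 17 of 24, Cidea in 17 of 25, NAP025923-1 in 15, H2-Q1 in 14, Cidec in 12, Drc7 in 8 and Enho in 7, and the direction of each was the same throughout. Quantile normalization, normexp or leaving out HQ replicate 5 moved several list medians by over 1.5 times: that of PPARalpha targets was -0.08 after quantile normalization and -0.36 without HQ replicate 5, against -0.17 as reported, bile acid genes -0.17 after quantile normalization, hepatokines -0.15, and Kupffer cell markers 0.02 after normexp. The causes were not tested.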
